A study of Mus musculus with 8 samples.

Results

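The transcripts described here come from 9 genes that mark atrial muscle, the pacemaker or the calcium machinery of heart muscle: Nppa, Nppb, Gja1, Gja5, Hcn4, Shox2, Ryr2, Pln and Atp2a2. They were taken from all array spots other than controls by gene name, with every probe kept, which gave 9 of 27827 gene names, 20 of 41174 probes and 47 of 43379 spots. The question was whether these genes of differentiated heart tissue differed between mouse embryos that carry 1 mutated Tbx5 allele and wild-type embryos, in the posterior second heart field (pSHF) at embryonic day 9.5. The pSHF lies dorsal to the forming heart and supplies cells to the atria and to the septum between them.

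There were 2 groups of 4 samples. The group named Tbx5-/+ in the labels came from heterozygous mice kept on a mixed background, so the allele was carried in all tissues and not in the pSHF alone, and the group named Tbx5 WT came from wild-type embryos at the same age. All dams had received gonadotropins before mating, each sample was a pool of RNA from an unstated number of embryos, and each was measured with Cy3 on 1 array with probes of 60 bases. Both groups carry the embryo numbers 1, 5, 6 and 7, by which arrays are named here. Nothing in the labels says how a number relates to litters, so the p-values measure the spread between these pools.

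The natriuretic peptides Nppa (ANP) and Nppb (BNP) are secreted by heart muscle, and Nppa marks the atria and the early chamber wall. Gja5 and Gja1 are connexins, which form gap junctions that carry current between cells, Hcn4 carries the pacemaker current, and Shox2 is a transcription factor of the sinus node and the venous pole. In each beat calcium leaves the sarcoplasmic reticulum through the channel Ryr2 and returns through the pump Atp2a2 (SERCA2), which phospholamban (Pln) restrains. Tbx5 is a T-box transcription factor of the atria, venous pole and conduction system, and Nppa and Gja5 are textbook targets of it in heart muscle.

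Positions below are those of the array files on the mouse build mm9. The sequences printed next are 1 probe each of 7 of the genes, shown because the probes of 1 gene gave different answers and a reader needs to see which part of the transcript each one reads. They are given 5′ to 3′ in lower case, and the span is longer than 60 bases where the probe crosses an intron.
Nppa, A_51_P361340, chr4:147375047-147375209, plus strand: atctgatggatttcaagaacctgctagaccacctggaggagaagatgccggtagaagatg
Nppb, A_51_P426195, chr4:147360489-147360548, plus strand: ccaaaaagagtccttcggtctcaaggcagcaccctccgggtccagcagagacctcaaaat
Gja5, A_51_P333216, chr3:96854968-96855027, plus strand: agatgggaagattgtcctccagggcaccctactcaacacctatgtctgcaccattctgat
Hcn4, A_51_P162805, chr9:58705826-58705885, plus strand: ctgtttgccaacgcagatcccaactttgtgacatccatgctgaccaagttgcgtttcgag
Shox2, A_52_P356698, chr3:66779435-66779814, minus strand: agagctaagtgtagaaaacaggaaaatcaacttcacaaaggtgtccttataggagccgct
Ryr2, A_51_P391655, chr13:11650372-11652843, minus strand: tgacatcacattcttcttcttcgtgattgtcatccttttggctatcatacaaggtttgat
Atp2a2, A_52_P168097, chr5:122910660-122910719, minus strand: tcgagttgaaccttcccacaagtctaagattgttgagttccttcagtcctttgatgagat

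Because a T-box factor was mutated, the promoters of the genes were also read, from the RefSeq table of the build GRCm38.p6, which held 8 of the 9 genes. The 250 bases before the start were searched on both strands for the T-box core AGGTGT and for its longer form AGGTGTGA, which contains the core. The core was found before Nppa and before Hcn4, and the longer form before Nppa. Over the 17492 protein-coding genes of that table with a full window, 12.8% held the core and 1.17% the longer form. A match is a description of letters, and whether a T-box factor binds there was not tested. Both stretches of 60 bases are shown with the match in capitals, where it reads as the reverse complement.
Nppa, chr4:148000472-148000531, plus strand: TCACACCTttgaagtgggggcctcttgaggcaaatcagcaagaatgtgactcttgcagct
Hcn4, chr9:58822699-58822758, plus strand: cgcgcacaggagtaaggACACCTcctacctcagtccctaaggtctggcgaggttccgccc

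Across the arrays, 45.0% to 52.8% of the spots were well above background in Tbx5-/+ and 50.9% to 63.6% in Tbx5 WT, and 0 spots were saturated. Values are log2 levels after variance stabilization (VSN), and testing was limited to the 20027 probes that stood well above background on the 4 arrays of Tbx5-/+, of Tbx5 WT or of both. The median difference of these probes, Tbx5-/+ minus Tbx5 WT, was -0.19, and it moved to -0.012 after quantile normalization, 0.10 with 75th percentile scaling and 0.13 with arrays centred on the median. On the leading principal component, which held 56.9% of the variance, the array of Tbx5-/+ 1 lay with the Tbx5 WT arrays. A measure that tracks the integrity of RNA was taken from the arrays themselves, the gap in level between the probe nearest the 3′ end and the probe nearest the 5′ end of 1751 transcripts. Its median was 1.82, 2.38, 2.48 and 2.51 (log2) in Tbx5-/+ 1, 5, 6 and 7 and 1.76, 2.001, 2.13 and 1.94 in Tbx5 WT 1, 5, 6 and 7. The gap was therefore wider in 3 of the 4 Tbx5-/+ arrays than on any Tbx5 WT array.

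Tbx5 was read first as a check of the labels. At its 3′ probe, A_52_P523712, the level was 9.01, 9.73, 9.16 and 8.62 in Tbx5-/+ 1, 5, 6 and 7 and 11.47, 11.56, 10.42 and 11.54 in Tbx5 WT. Every Tbx5-/+ array, number 1 included, lay below every Tbx5 WT array. The difference was -2.12 ± 0.32 (SE, n = 4 and 4), a 4.34-fold lower level, with a limma adjusted p of 0.092 over all probes and of 0.034 with the embryo number as a block. An upstream probe, A_51_P469338, differed by -0.15 with a limma adjusted p of 0.789. Its signal was weak, at 6.05 to 7.55 in Tbx5-/+ and 6.71 to 7.44 in Tbx5 WT. Only 8.36% of the tested probes were dimmer. With 3 Tbx5-/+ arrays clear of background, this probe passed the filter through Tbx5 WT alone. The small difference there is therefore not a firm measure of upstream Tbx5 RNA. Whether either probe lies in the part that the mutation removed is not given in the sources used here.

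The tissue labels were checked with marker lists. All 14 pSHF markers on the array were tested, and 6 of them, Tbx5 included, were lower in Tbx5-/+ at an unadjusted limma p under 0.05 while none was higher. Of the 6, Foxf1a, Osr1, Gli1 and Gata4 passed the filter through Tbx5 WT alone, so their place in this count is no independent support. They were well above background on 3, 3, 3 and 2 Tbx5-/+ arrays. Among all tested probes 18.5% were lower and 3.38% higher at that p, and 5 of the 11 tested endothelial markers were lower. All 18 cardiomyocyte markers were also tested, although the dissection separated the pSHF from the heart. Their mean level was 12.59, 13.76, 13.44 and 13.99 in Tbx5-/+ 1, 5, 6 and 7 and 13.52, 13.35, 13.89 and 13.07 in Tbx5 WT. Heart muscle transcripts were thus present on every array, with overlapping means, and the 4 arrays of Tbx5-/+ held both the lowest and the highest mean. In such bulk RNA, fewer cells of a type and less RNA per cell cannot be told apart.

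Of the 20 probes of the 9 genes, 10 were well above background on all 8 arrays, 6 on some and 4 on none, as the detection plot shows. The 10 tested probes came from 6 genes, and Hcn4, Shox2 and Pln had none. No probe of the 9 genes passed a limma adjusted p of 0.05, where 0% of all tested probes did. At an unadjusted p of 0.05 the count was 1 lower probe (of Atp2a2) and 1 higher probe (of Gja1), against the same 18.5% and 3.38% of all tested probes. That split depends on the scale, since lower probes made up 84.6% of those past this p with VSN, 49.5% after quantile normalization, 35.6% with 75th percentile scaling and 29.0% with arrays centred on the median. The count for the 9 genes moved too, to 0 lower and 1 higher on each of these other scales. Without Tbx5-/+ 1 it was 0 lower and 6 higher, where 2924 of all 20027 probes were higher. With the 3′ to 5′ gap as a covariate it was 3 lower and 0 higher, where 3006 of all probes were lower. None of the 10 had groups that did not overlap, against 8.98% of all probes with Tbx5-/+ wholly below and 0.744% wholly above. Over the brightest tested probe of the 6 genes, the median difference was 0.42, beside -0.19 for all tested probes. It ran from 0.21 to 0.98 without 1 array and turned to -0.38 with the 3′ to 5′ gap as a covariate.

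**Figure D1:**
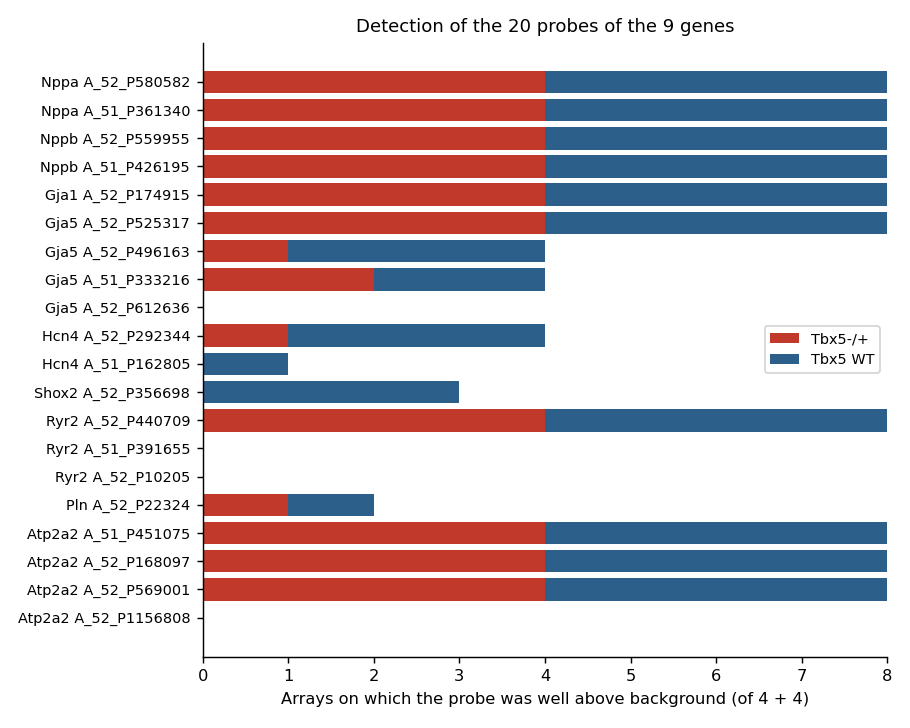
Number of arrays (horizontal axis, of 4 Tbx5-/+ in red and 4 Tbx5 WT in blue) on which each of the 20 probes was well above background. 10 probes reached all 8 arrays, 4 reached 0, and the Shox2 probe reached 3 Tbx5 WT arrays and no Tbx5-/+ array.

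Nppa, a marker of atrial and early chamber muscle, was present at 2 probes with 10 spots each. At A_52_P580582 (chromosome 4, 147376024 to 147376083, plus strand) the level was 12.70, 15.08, 15.87 and 15.44 in Tbx5-/+ 1, 5, 6 and 7 and 13.11, 14.18, 15.47 and 14.56 in Tbx5 WT. Number 1 was lowest and number 6 highest in both groups, and the groups overlapped. The difference was 0.44 ± 0.69 (SE, n = 4 and 4) with a 95% interval from -1.10 to 1.98, a limma adjusted p of 0.707 (exact permutation p = 0.629). It was 0.24 within the arrays labelled 1 (numbers 1 and 5) and 0.64 within those labelled 2 (numbers 6 and 7). Without Tbx5 WT 1 it was 0.036, without Tbx5-/+ 6 or 7 it was 0.076 or 0.22, and without Tbx5-/+ 1 or Tbx5 WT 6 it was 1.13 or 0.82. The probe printed above gave a difference of 0.46. On each array the printed probe minus the 3′ probe was -2.12 to -1.85, so the spread between pools was nearly the same at both probes.

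Nppb, the neighbouring natriuretic peptide gene, was higher in the mean of Tbx5-/+ but not past the test. At A_52_P559955 (chromosome 4, 147360064 to 147360123, plus strand) the level was 10.21, 11.003, 12.18 and 12.07 in Tbx5-/+ 1, 5, 6 and 7 and 10.32, 9.72, 11.57 and 10.95 in Tbx5 WT. The groups overlapped, and within numbers 5, 6 and 7 the Tbx5-/+ pool was the higher. The difference was 0.72 ± 0.50 (SE, n = 4 and 4), a 1.65-fold higher level, with a limma adjusted p of 0.385 (exact permutation p = 0.314). Within array labels 1 and 2 it was 0.59 and 0.86, and it was 1.11 without Tbx5-/+ 1, 0.45 without Tbx5-/+ 6 and 0.42 without Tbx5 WT 5. The probe printed above gave 0.71 with a limma adjusted p of 0.339. Both peptides therefore had the same sign at every probe, and neither group mean lay outside the spread of the other group.

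Gja1, the connexin of working muscle and of many other tissues, had the largest difference among the 10 tested probes. Its probe A_52_P174915 (chromosome 10, 56109814 to 56109873, plus strand, 10 spots) had a level of 11.01, 12.53, 13.39 and 12.285 in Tbx5-/+ 1, 5, 6 and 7 and 11.02, 11.06, 11.52 and 11.19 in Tbx5 WT. The Tbx5 WT pools lay close together, 3 Tbx5-/+ pools lay above all of them, and Tbx5-/+ 1 lay just below the lowest. The difference was 1.105 ± 0.42 (SE, n = 4 and 4), a 2.15-fold higher level, with an unadjusted limma p of 0.027, an adjusted p of 0.202 and a permutation p, exact, of 0.143. It exceeded the differences of 99.6% of the tested probes, and it was 0.73 and 1.48 within array labels 1 and 2. Leaving out Tbx5-/+ 1 brought it past the threshold, at 1.54 with a limma adjusted p of 0.014. In that fit 3833 of the 20027 tested probes passed, so the call was not particular to Gja1. The Gja1 difference also moved with the signal gap. With the 3′ to 5′ gap of each array as a covariate it was 0.29 with a limma adjusted p of 0.720.

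Gja5, the connexin of atrial muscle and of the fast conduction system, had 1 probe well above background throughout. At A_52_P525317 (chromosome 3, 96857349 to 96857408, plus strand) the level was 12.61, 13.26, 12.12 and 13.39 in Tbx5-/+ 1, 5, 6 and 7 and 11.89, 13.30, 13.40 and 12.86 in Tbx5 WT. The ranges nearly coincided. The difference was -0.02 ± 0.39 (SE, n = 4 and 4), with a 95% interval from -0.89 to 0.84 and a limma adjusted p of 0.977. It was 0.33 and -0.38 within array labels 1 and 2. The probe printed above was well above background on 2 arrays of each group and differed by 0.22.

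The other 2 probes that carry the name Gja5 should be read apart. On mm9 they lie 1357617 and 1358323 bases from the 3′ probe, both on a different transcript accession, and the nearest probe of another gene belongs to Zfp697, 18682 and 17976 bases away. A_52_P496163 was well above background on 1 Tbx5-/+ and 3 Tbx5 WT arrays and A_52_P612636 on none. Their values are therefore not taken as measures of the connexin.

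**Figure D2:**
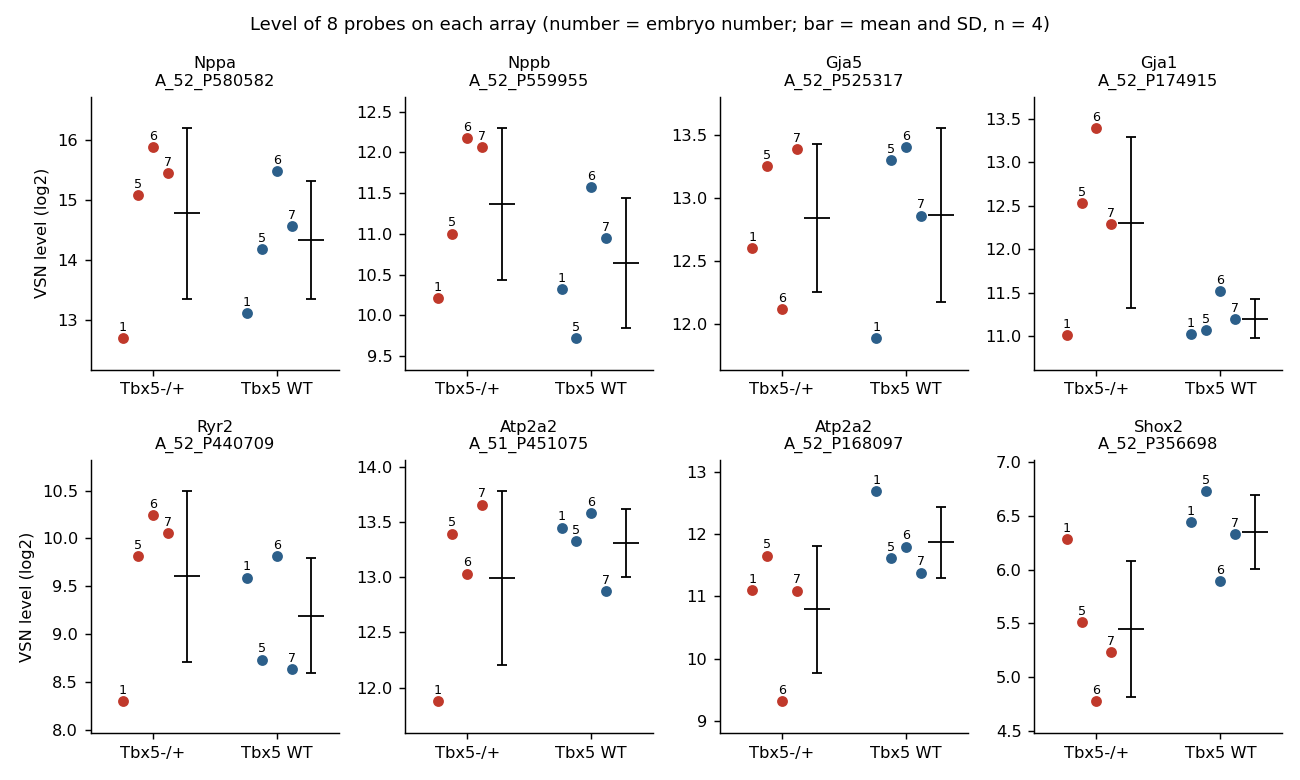
VSN level (log2, vertical axis) of 8 probes on each of the 4 Tbx5-/+ (red) and 4 Tbx5 WT (blue) arrays, with the embryo number beside each point and the mean and SD as bars. In the Gja1 panel Tbx5-/+ 5, 6 and 7 lie at 12.285 to 13.39, above all Tbx5 WT arrays (11.02 to 11.52), while Tbx5-/+ 1 lies just below the lowest of them.

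Shox2, which holds back the working-muscle program in the sinus node, was at the edge of detection. The printed probe was well above background on none of the Tbx5-/+ arrays and on 3 of the 4 Tbx5 WT arrays. Its level was 6.28, 5.51, 4.78 and 5.24 in Tbx5-/+ 1, 5, 6 and 7 and 6.44, 6.72, 5.89 and 6.33 in Tbx5 WT. Tbx5-/+ 5, 6 and 7 lay below all Tbx5 WT pools, and Tbx5-/+ 1 lay above Tbx5 WT 6. Within numbers 1, 5, 6 and 7 the differences were -0.15, -1.21, -1.12 and -1.09, at values near background. The means of 5.45 and 6.35 differed by -0.89 with an exact permutation p of 0.057, and the within-label differences were -0.68 and -1.10. Since the Tbx5-/+ values were not well above background they set only a rough bound. Each was raised to the lowest level called well above background on its array, unless it was already higher. By this the Tbx5 WT mean was 1.14-fold higher with VSN, a ratio of means from groups that overlapped. The Tbx5 WT mean also includes an array that was not well above background. Fitted without the filter on dim probes, the limma adjusted p was 0.380.

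Hcn4, the channel of the pacemaker current, was also near background. Its probe A_52_P292344 (chromosome 9, 58708397 to 58708456, plus strand) was well above background on 1 Tbx5-/+ and 3 Tbx5 WT arrays. The level there was 7.01, 6.43, 7.71 and 5.84 in Tbx5-/+ 1, 5, 6 and 7 and 6.64, 6.07, 7.21 and 6.24 in Tbx5 WT, with means of 6.75 and 6.54. The order of the pools was nearly the same in both groups, and the ranges overlapped throughout, with an exact permutation p of 0.714. The probe printed above was well above background on 1 array, of Tbx5 WT, and gave no fold.

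Ryr2, the release channel, gave a signal at its 3′ end alone. At A_52_P440709 (chromosome 13, 11645812 to 11645871, minus strand) the level was 8.30, 9.81, 10.25 and 10.05 in Tbx5-/+ 1, 5, 6 and 7 and 9.59, 8.74, 9.82 and 8.64 in Tbx5 WT. The groups overlapped, and Tbx5-/+ 1 was the lowest of all 8 pools. The difference was 0.41 ± 0.45 (SE, n = 4 and 4), with a limma adjusted p of 0.584, and it was -0.11 and 0.92 within array labels 1 and 2. It was 0.84 without Tbx5-/+ 1 and 0.62 without Tbx5 WT 6, and it was 0.19 to 0.26 without Tbx5-/+ 6, Tbx5-/+ 7, Tbx5 WT 5 or Tbx5 WT 7. Neither the probe printed above, which lies further upstream in the transcript, nor A_52_P10205 was well above background on any array.

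Pln, the inhibitor of the calcium pump, was well above background on 1 array of each group. At A_52_P22324 (chromosome 10, 53064944 to 53065003, plus strand) the level was 5.66, 6.10, 5.90 and 6.65 in Tbx5-/+ 1, 5, 6 and 7 and 5.46, 5.91, 6.61 and 5.46 in Tbx5 WT. These values were near background and overlapped, with means of 6.08 and 5.86 and an exact permutation p of 0.514, so a difference was not detectable at this signal.

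Atp2a2, the pump itself, had 3 tested probes, and all had a lower mean in Tbx5-/+. The probe nearest the 3′ end, A_51_P451075 (chromosome 5, 122903704 to 122903763, minus strand), had a level of 11.88, 13.40, 13.03 and 13.66 in Tbx5-/+ 1, 5, 6 and 7 and 13.45, 13.32, 13.58 and 12.87 in Tbx5 WT. Tbx5-/+ 1 was the lowest pool and Tbx5-/+ 7 the highest. The difference was -0.32 ± 0.36 (SE, n = 4 and 4) with a limma adjusted p of 0.604, and it turned to 0.05 with 75th percentile scaling, to 0.0048 with arrays centred on the median and to 0.055 without Tbx5-/+ 1. Within array labels 1 and 2 it was -0.75 and 0.12.

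At the probe of Atp2a2 printed above, the level was 11.10, 11.66, 9.31 and 11.09 in Tbx5-/+ 1, 5, 6 and 7 and 12.68, 11.61, 11.80 and 11.38 in Tbx5 WT. Tbx5-/+ 6 stood lowest, and Tbx5-/+ 5 overlapped the Tbx5 WT pools. The difference was -1.08 ± 0.48 (SE, n = 4 and 4), a 2.11-fold lower level, with a limma adjusted p of 0.228 (exact permutation p = 0.086). Within array labels 1 and 2 it was -0.77 and -1.39. The third probe, A_52_P569001 (chromosome 5, 122906850 to 122906909, minus strand), is annotated to another transcript of the gene and differed by -0.40 with a limma adjusted p of 0.301. Both differences stayed below 0 in all 18 alternatives fitted across the probes, but not at the same size. That of the printed probe was -0.59 without Tbx5-/+ 6 and -0.43 with array weights, and that of A_52_P569001 was -0.21 without Tbx5 WT 1 and -0.040 with 75th percentile scaling.

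How far the Atp2a2 probes disagreed was measured on each array. The printed probe minus the 3′ probe was -0.775, -1.74, -3.72 and -2.57 in Tbx5-/+ 1, 5, 6 and 7 and -0.76, -1.71, -1.79 and -1.49 in Tbx5 WT. The distance was smallest on the arrays of number 1, whose 3′ to 5′ gaps were the narrowest of their groups, and largest in Tbx5-/+ 6 and 7, whose gaps were the widest. The change at the printed probe minus that at the 3′ probe was -0.76, with an exact permutation p of 0.286 and a value of 0.714 after Benjamini-Hochberg adjustment over 5 probe pairs. The part of the 3′ to 5′ gap in this disagreement was not tested beyond the covariate fit. In that fit the printed probe differed by -0.67 and the 3′ probe by -0.97, so the printed probe no longer had the lower value. The last probe, A_52_P1156808, lies 43050 bases from the 3′ probe on another transcript accession and was well above background on no array.

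**Figure D3:**
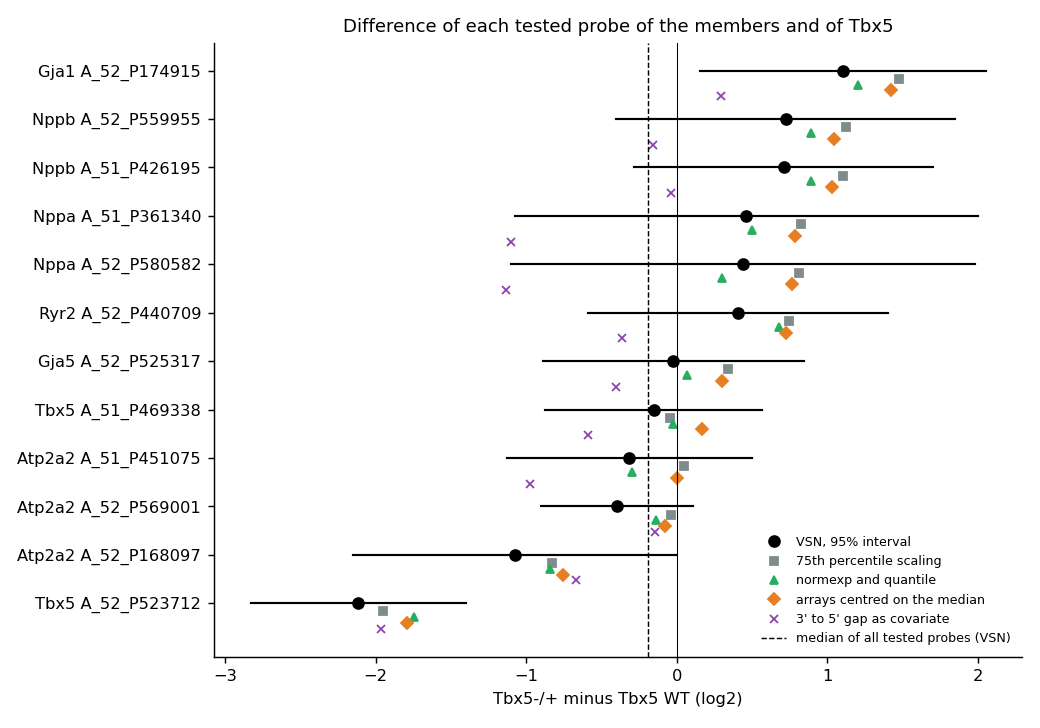
Tbx5-/+ minus Tbx5 WT (log2, horizontal axis) for the 10 tested probes of the 9 genes and the 2 Tbx5 probes, with the VSN value and its 95% interval in black and 4 other settings in colour. Tbx5 at A_52_P523712 lies at -2.12, Gja1 at 1.105, and the dashed line marks the median of all tested probes (-0.19).

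All the differences above depend on the scale of the array, so pairs of genes were also compared within an array, where an additive scale falls away. Such a value says whether 2 genes differed unequally and not which transcript was more abundant. Of 5 pairs, 3 could be tested, since Hcn4, Shox2 and Pln had no tested probe. Ryr2 minus Atp2a2 was -3.58, -3.58, -2.79 and -3.60 in Tbx5-/+ 1, 5, 6 and 7 and -3.86, -4.59, -3.76 and -4.24 in Tbx5 WT. All Tbx5-/+ pools lay above all Tbx5 WT pools, and within each number the Tbx5-/+ pool was the higher, by 0.28 to 1.00. The difference was 0.72, with an exact permutation p of 0.0286, which is the smallest that 70 assignments allow, and 0.086 after adjustment over the 3 pairs. With the arrays paired by number, exact sign changes gave an adjusted p of 0.188.

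Gja5 minus Gja1 was 1.60, 0.73, -1.28 and 1.102 in Tbx5-/+ 1, 5, 6 and 7 and 0.87, 2.24, 1.89 and 1.67 in Tbx5 WT. Tbx5-/+ 6 stood apart below, and number 1 ran opposite to the other numbers. The difference was -1.13, with an exact permutation p of 0.114 and 0.171 after adjustment. Without Tbx5-/+ 6 it was -0.52. With the arrays paired by number, exact sign changes gave an adjusted p of 0.375.

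Nppa minus Nppb was 2.49, 4.08, 3.69 and 3.37 in Tbx5-/+ 1, 5, 6 and 7 and 2.79, 4.46, 3.90 and 3.61 in Tbx5 WT. The numbers kept the same order in both groups, and within each number the Tbx5-/+ pool was lower, with differences of -0.38 to -0.21. Between the groups the difference was -0.28, with an exact permutation p of 0.543. Taken by number, the adjusted p from exact sign changes was 0.188, and 4 pairs cannot go below 0.125 before adjustment.

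**Figure D4:**
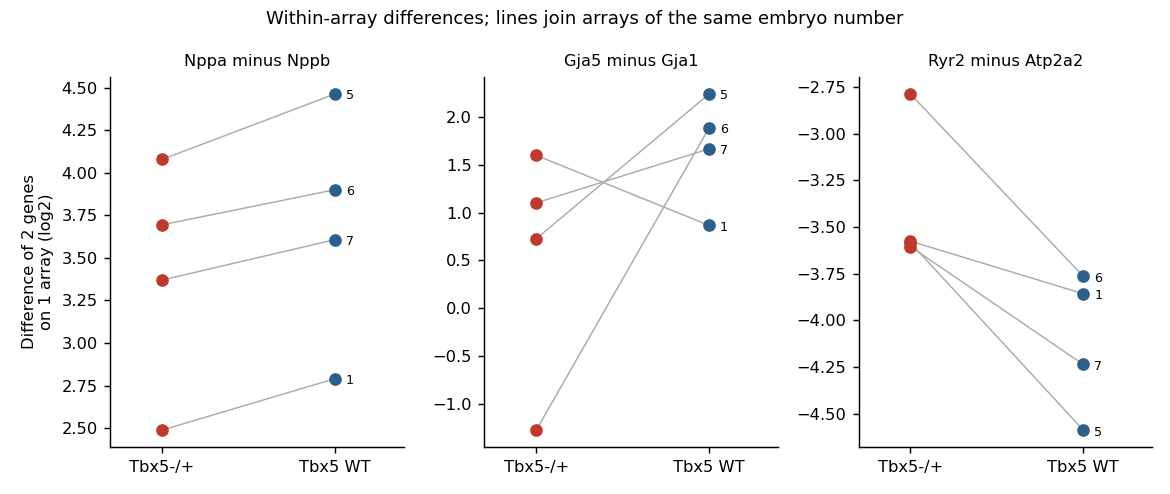
Difference of 2 genes on the same array (log2, vertical axis) in Tbx5-/+ (red) and Tbx5 WT (blue), with lines joining arrays of the same embryo number. Ryr2 minus Atp2a2 is higher in Tbx5-/+ within all 4 numbers, from -3.60 to -2.79 against -4.59 to -3.76.

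Members were then set against the heart muscle on the same array, a comparison added after the data had been seen. Relative to the mean of the cardiomyocyte markers, Gja1 was higher in Tbx5-/+ by 1.12, with -1.59, -1.24, -0.044 and -1.71 in Tbx5-/+ 1, 5, 6 and 7 and -2.50, -2.29, -2.38 and -1.88 in Tbx5 WT. On this scale the Gja1 groups did not overlap, with Tbx5-/+ 1 now above every Tbx5 WT pool. The exact permutation p was 0.0286, and 0.114 after adjustment over 12 probes. The 3′ probe of Atp2a2 differed on the same scale by -0.30 with the same p-values, and its groups did not overlap either. The groups did overlap at the other tested probes of Atp2a2. A_52_P168097 and A_52_P569001 differed by -1.06 and -0.38, with adjusted exact permutation p-values of 0.343 and 0.617. How many of all tested probes had groups that did not overlap on this scale was not counted. Nppa at A_52_P580582 and Nppb at A_52_P559955 differed by 0.46 and 0.74, with adjusted exact permutation p-values of 0.617 and 0.343.

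The 3′ to 5′ gap moved with several of these levels. Nppa at A_52_P580582 was lowest on the 2 arrays with the narrowest 3′ to 5′ gaps and 15.08 or more on the 4 arrays with the widest. With the gap as a covariate, a fit added after the data had been seen, the difference of Nppa turned from 0.44 to -1.13, that of Nppb at A_52_P559955 from 0.72 to -0.16 and that of Ryr2 from 0.41 to -0.37. None of the 3 passed an adjusted p of 0.05 in that fit, in which limma called 0 probes overall. Since 3 of the 4 widest gaps were on Tbx5-/+ arrays, genotype and gap could be separated only in part.

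**Figure D5:**
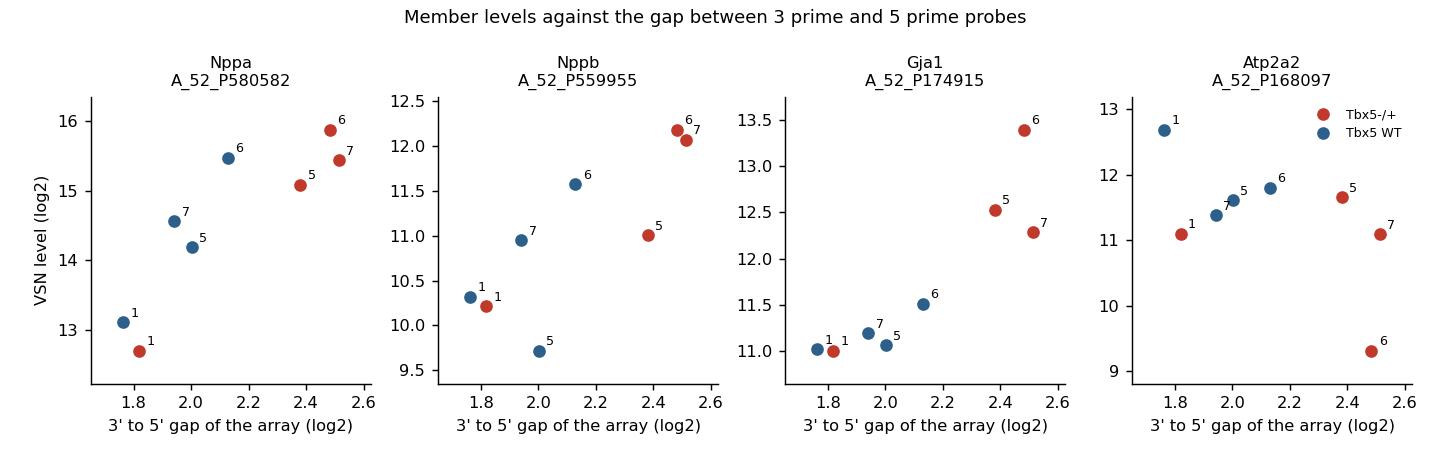
VSN level (log2, vertical axis) of 4 probes against the median gap between 3′ and 5′ probes of the same array (log2, horizontal axis), with Tbx5-/+ in red, Tbx5 WT in blue and the embryo number beside each point. Tbx5-/+ 5, 6 and 7 have the widest gaps (2.38 to 2.51) and the highest Gja1 levels, and Tbx5-/+ 1 (1.82) lies beside Tbx5 WT 1 (1.76).

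The other genes of each pathway were read at their brightest tested probe, and no gene passed a limma adjusted p of 0.05 in any of the 4 lists. The counts at an unadjusted p of 0.05 stand beside 18.5% of all tested probes lower and 3.38% higher. Of the 15 atrial and natriuretic peptide genes on the array 11 were tested, with a median difference of -0.24 and 1 gene lower at an unadjusted p of 0.05. That gene was Corin, the protease that cuts the Nppa precursor, at -0.76 with a limma adjusted p of 0.180, named here after its value was seen. The extremes were Pam, an enzyme that amidates peptides, at -1.62 ± 0.76 (SE), and Myl7, the atrial myosin light chain, at 0.61 ± 0.32, with limma adjusted p-values of 0.241 and 0.272. Pam drew its difference largely from Tbx5-/+ 6, at 5.69 against 8.85 or more on the other arrays. On that array it was not well above background, so Pam passed the filter through Tbx5 WT alone and the size of its difference is not exact.

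Of 15 gap junction genes, 7 were tested and none was past an unadjusted p of 0.05, with a median difference of 0.22. Gja4, an endothelial connexin, had the lowest value at -0.52, and Pkp2, a desmosome protein of the intercalated disc, the highest at 0.66.

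Among pacemaker and conduction genes 15 of 17 were tested, with a median difference of -0.31 and 2 genes lower at an unadjusted p of 0.05, a share below the 18.5% of all probes. Tbx3, the T-box repressor that marks the sinus node and the conduction system, had a level of 12.74, 12.81, 12.07 and 12.21 in Tbx5-/+ 1, 5, 6 and 7 and 13.03, 13.83, 13.37 and 13.94 in Tbx5 WT. Every Tbx5-/+ pool lay below every Tbx5 WT pool, as at 8.98% of all tested probes, and the difference was -1.08 ± 0.27 (SE) with a limma adjusted p of 0.105. The other was Bmp4, a signal of the venous pole, at -1.06 with a limma adjusted p of 0.123, named here after its value was seen. The most positive was Kcne1, a potassium channel subunit, at 0.50 with a limma adjusted p of 0.260.

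Of 29 calcium handling genes 26 were tested, with a median difference of -0.15 and 4 genes lower at an unadjusted p of 0.05, again below 18.5%. Atp2b1, a calcium pump of the plasma membrane, had a level of 11.54, 11.02, 10.73 and 11.17 in Tbx5-/+ 1, 5, 6 and 7 and 11.99, 11.997, 12.13 and 12.42 in Tbx5 WT. The groups did not overlap, with 8.98% of all probes as the background, and the difference was -1.02 ± 0.22 (SE) with a limma adjusted p of 0.096. Stim1, a sensor of stored calcium, differed by -0.99, the pump Atp2a1 by -0.92 and Srl, a luminal calcium-binding protein, by -0.73, these 3 named after their values were seen. Itpr1, a release channel of the endoplasmic reticulum, was the most positive at 0.59 with a limma adjusted p of 0.313.

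With the embryo number as a block, 2217 of the 20027 tested probes and 4 of the pathway genes passed a limma adjusted p of 0.05, all 4 of the latter lower in Tbx5-/+. They were Tbx3 (adjusted p = 0.040), Bmp4 (0.035), Atp2b1 (0.036) and Stim1 (0.041). The 4 lists held 11, 7, 15 and 26 tested genes, with Sln shared by the first and the last. The share called among them was therefore below that of all tested probes. In this fit 84.9% of the probes past an unadjusted limma p of 0.05 were lower in Tbx5-/+. None of the 10 tested probes of the 9 genes was among the called probes, with Gja1 at an adjusted p of 0.053.

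As a description of likeness, the other gene name whose level followed each member most closely over the 8 arrays was found among the tested probes. Pearson's r was 0.987 for Nppa with AK044852, 0.983 for Nppb with Rwdd3, 0.997 for Gja1 with A830005F24Rik, 0.909 for Gja5 with Abcc8, 0.986 for Ryr2 with Derl2 and 0.975 for Atp2a2 with Zc3h12c. With 8 arrays that share their scale and differ in this gap and about 20020 probes searched, such values are high by selection.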

How the data were processed

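RNA of 4 Tbx5-/+ and 4 Tbx5 WT pools was measured on 1 Agilent array each. Intensity values were deposited from Agilent Feature Extraction 10.5.1.1, before normalization between arrays, and the deposited table holds log2 values that the authors normalized by VSN for a part of the probes. Groups and numbers came from the labels. The 9 genes, the gene lists and the pairs were chosen with earlier results of these data known.

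Local median background was subtracted from the mean signal, outlier spots were left out, spots of a probe were averaged, and VSN was programmed in R 4.3.3 (90% of probes kept, 7 iterations). Pearson's r with the deposited values, across probes, was at least 0.9999 on every array. Probes well above background on all 4 arrays of a group (20027) were compared with limma 3.58.1, with Benjamini-Hochberg adjustment over all of them at 0.05. The scripts were tested on simulated data. Single values had exact two-sided permutation tests over 70 assignments, and arrays, not counts, limit the precision. Bounds for probes not well above background took, on each dim array, the higher of the probe's own value and the lowest value of a probe well above background.

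Same-numbered arrays deviated together from their group means (r = 0.438, 0.400, 0.593 and 0.137 for 1, 5, 6 and 7), so the number was treated as a pairing in a blocked fit, although Tbx5-/+ 7 correlated more with Tbx5 WT 6 (r = 0.372) than with its own number. Alternatives changed the scaling, the filter, the array weights and the blocks, or left out an array. Named genes were every probe of the 9 genes, Tbx5, the extremes of each pathway list and the closest gene name by r. The lists for proepicardium (1 of 6 tested genes lower at an unadjusted p of 0.05), foregut endoderm (1 of 12), endothelium (5 of 11), liver bud (1 of 4), primitive erythrocyte (0 of 10), neural tube (0 of 4) and ventricular cardiomyocytes (0 of 6) held 0 genes at an adjusted p of 0.05 and 0 higher at either threshold.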

Additional observations from a re-analysis of the deposited data

Results flagged for a closer look

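Among 44 groups of 4 arrays examined, each holding the values of 1 probe in 1 genotype, 2 had a single array far from the other 3, and chance alone marks about 1 group in 20. At the Gja5 probe A_51_P333216 the array of Tbx5-/+ 1 had a level of 5.74 while its nearest neighbour in the group was at 6.78, a gap of 0.889 of the range of the group, at a probe that was near background. At the Tbx5 probe A_52_P523712 the array of Tbx5 WT 6 had a level of 10.42 while the nearest was at 11.47, a gap of 0.921 of the range, and it still lay above every Tbx5-/+ array. The cause was not tested in either case.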

How the results depend on the processing

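Signal over background limited the tests, since 10 of the 20 probes could not be tested. The blocked fit, by embryo number, called 2217 probes and 4 pathway genes where the fit without it called 0, moved Tbx5 (-2.12) past the threshold, and changed no other call. Array weights, which ran from 0.17 to 5.43, called 10001 probes, 24 pathway genes and 4 probes of the 9 genes (both of Nppb, Gja1 and Ryr2), with Tbx5 at -2.52. Leaving out 1 array gave 0 to 3833 called probes, 0 to 9 pathway genes and 0 to 1 probe of the 9 genes, with the highest counts without Tbx5-/+ 1, and Tbx5 at -2.39 to -1.95. Without Tbx5 WT 1, 211 probes were called. The median difference of the 6 genes was 0.21 to 0.98 without 1 array and -0.38 with the 3′ to 5′ gap as a covariate, an alternative added after seeing the data, as was the scale relative to cardiomyocyte markers.

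Directions turned as follows. Gja5 at A_52_P525317 was 0.34 with 75th percentile scaling, 0.066 after quantile normalization, 0.30 with arrays centred on the median, 0.28 with array weights and -0.35 to 0.22 without 1 array. Atp2a2 at A_51_P451075 was 0.051 with 75th percentile scaling, 0.0048 with centring, 0.43 with array weights and -0.54 to 0.055 without 1 array. Tbx5 at A_51_P469338 was 0.17 with centring, 0.053 with array weights and -0.34 to 0.16 without 1 array. With the gap as a covariate, Nppa was -1.13 and -1.10, Nppb -0.16 and -0.038 and Ryr2 -0.37. Nppa minus Nppb ran from -0.58 to 0.024 without 1 array. The cause was not tested. Gja1 stayed higher, and Atp2a2 at A_52_P168097 and A_52_P569001 stayed lower, in all 18 alternatives fitted across the probes.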
